A study of Mus musculus with 6 samples.

Results

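The genes described here are those that encode collagen chains, the subunits of the main structural proteins of the extracellular matrix, in white fat of mice fed a high-fat diet (HFD). They were taken as every gene whose symbol has the form Col, a type number, a and a chain number, which gave 43 of 32759 genes. The THBru group comprised 3 samples of white adipose tissue from HFD-fed mice given tetrahydroberberrubine (THBru), an alkaloid derivative studied as an anti-obesity compound, at 50 mg per kg and day. The HFD group comprised 3 samples of the same tissue from mice on the diet without THBru. Both groups thus share the diet. Strain, sex, age, the fat depot and the number of animals behind each sample are not stated in the labels, so p-values measure only the spread between these samples, which may be technical. The study asked which processes THBru regulates in white fat, and no comparison in it was designed around collagens.

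Collagen chains wind around each other into a helix of repeated glycine-containing units. Fibrillar collagens (types I, III and V among others) form the banded fibres of connective tissue, and FACITs (fibril-associated collagens with interrupted helices) decorate these fibres. Type IV collagen forms the sheet of basement membranes, which in fat surrounds each adipocyte and lines capillaries. Type VI collagen forms beaded filaments next to the basement membrane and is abundant around adipocytes, and transmembrane collagens are anchored in the plasma membrane. Obese fat is known for the deposition of collagens around enlarged adipocytes.

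Total counts ranged from 67.2e6 to 72.1e6 in THBru and from 69.3e6 to 77.0e6 in HFD. All 3 THBru libraries stood apart from the HFD libraries by transcripts of other organs: a seminal vesicle list took 42.4% of counts in THBru 1 and at most 0.0897% in the other 5 libraries, an epididymis list took 5.22% in THBru 3 and at most 0.0140% elsewhere, and a kidney tubule list took 0.0851% in THBru 2 and at most 0.00142% elsewhere. These short lists do not hold all raised genes. Genes over 8-fold above the HFD mean and above 5 CPM of the total count took 51.1, 1.97 and 24.4% of counts in THBru 1 to 3. Such genes were picked by being high there, and their tissue of origin was not tested. Mature adipocyte markers took 0.698, 3.51 and 0.383% of counts in THBru 1 to 3, against 3.06 to 4.80% in HFD, so that their defining genes were present in every library, and lowest in THBru 1 and THBru 3. For this reason the values of THBru 2 alone are given beside the main results. Unless another scale is named, levels are counts per 1e6 (CPM) after TMM scaling, which corrects for a few genes taking up much of a library, and levels of different genes are compared only in FPKM, which also divides by transcript length.

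Collagen transcripts made up a smaller share of every THBru library than of any HFD library. The 43 genes took 0.169% (95% Wilson interval 0.168 to 0.170) of the counts in THBru 1, 0.525% (0.523 to 0.526) in THBru 2 and 0.215% (0.214 to 0.216) in THBru 3. In HFD 1, 2 and 3 they took 1.38% (1.37 to 1.38), 1.22% (1.21 to 1.22) and 0.787% (0.785 to 0.789). The groups did not overlap, and the difference of mean log2 shares was −2.04, with the smallest p that the exact two-sided permutation test over 20 relabellings can give, 0.1. It was −1.54 when genes raised over 8-fold and above 5 CPM in a THBru library were left out of the total, and −1.87 with TMM-scaled library sizes (exact p = 0.1 for both). The intervals cover counting error only. Markers of macrophages, which are common in obese fat, were also lower in every THBru library than in any HFD library. They summed to 776, 1234 and 279 TMM-scaled CPM in THBru 1 to 3, against 5742, 2595 and 2624 in HFD. In CPM of the total count, the sums were 491, 1470 and 312 in THBru 1 to 3, against 6204, 2650 and 2831 in HFD. Of the 12 markers, 12 had negative log2 fold changes (median −2.35), 0 of them called, and their part in the collagen values was not tested.

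**Figure D1:**
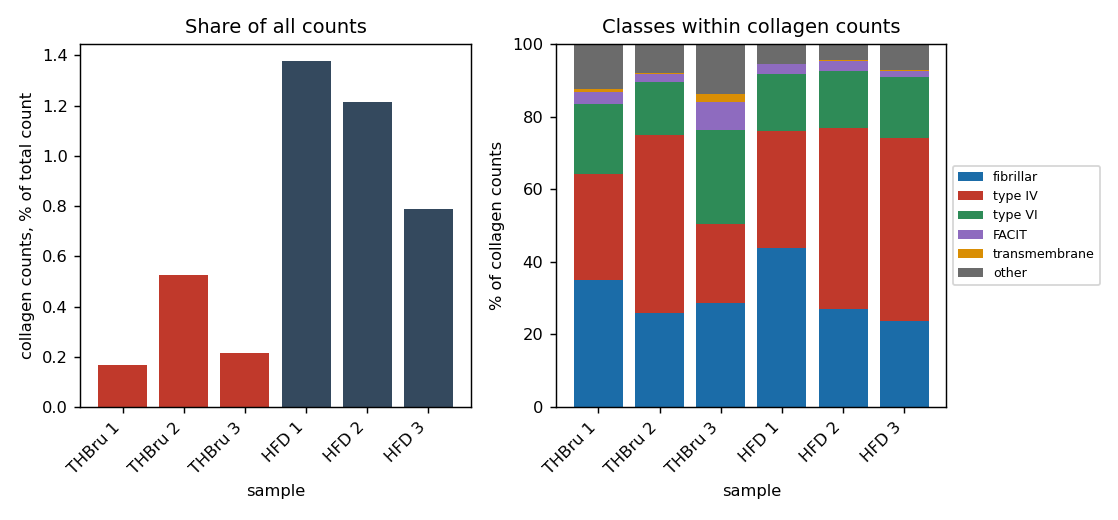
Left, collagen counts as a percentage of the total count of each sample; right, the 6 collagen classes as percentages of the collagen counts of that sample. The 3 THBru samples lie between 0.169 and 0.525%, and the 3 HFD samples between 0.787 and 1.38%, while the fibrillar share overlaps between the groups.

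Within the collagen counts, the share of each class varied between libraries of both groups. Type IV chains took 29.3, 49.1 and 21.9% of collagen counts in THBru 1 to 3, against 32.0, 50.1 and 50.4% in HFD 1 to 3. Fibrillar chains took 35.0, 25.9 and 28.6% in THBru, against 43.9, 26.9 and 23.7% in HFD. Type VI chains took 19.2, 14.7 and 26.0% in THBru, against 15.7, 15.5 and 16.8% in HFD, and FACITs took 3.24, 2.05 and 7.48% in THBru, against 2.86, 2.89 and 1.76% in HFD. These classes overlapped between the groups. The transmembrane class had the smallest share in every library, with 0.806, 0.264 and 2.2% in THBru, against 0.0427, 0.0411 and 0.0592% in HFD. The remaining collagens took 12.5, 8.06 and 13.9% in THBru, against 5.46, 4.54 and 7.30% in HFD. The last 2 classes did not overlap (exact permutation p = 0.1 each, and 0.3 when adjusted over the 6 classes).

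Of the 43 genes, 30 had a mean of at least 0.5 FPKM over the 6 samples and entered the edgeR quasi-likelihood test of THBru against HFD, with p-values adjusted over all 16140 genes tested. No collagen gene passed at an adjusted p under 0.05, higher or lower, where 0.118% of all genes tested were called higher and 0% lower. At an unadjusted p under 0.05, 13 of the 30 were lower in THBru, where the share of all genes tested was 8.93%, and 7 were higher, where it was 13.9%. The groups did not overlap for 14 collagens that were lower in THBru (15.1% of all genes tested) and for 7 that were higher (16.7%). In CPM of the total count these numbers were 13 (12.6% of all genes) and 5 (10.4%). Single THBru libraries left the HFD range for many genes of any kind: 18, 15 and 16 of the 30 collagens were below it in THBru 1 to 3, where 38.3, 30.5 and 39.1% of all genes were, and 9, 8 and 9 were above it, where 39.1, 32.8 and 42.3% were. DESeq2, fitted to the same counts, called 13 collagens lower and 6 higher at an adjusted p under 0.05, where the shares of all genes were 6.83% and 10.3%. The median log2 fold change was −0.96 over the 30 collagens, against 0.08 over all genes tested, and 19 of the 30 had negative values. Of the 30, 7 (Col27a1, Col4a3, Col4a4, Col6a4, Col17a1, Col7a1 and Col8a2) were under 0.5 FPKM in HFD and passed the filter only through THBru, so their positive fold changes were a condition of being tested. In THBru 2 alone against HFD, a fit that assumes the lone library varies like the HFD libraries, the collagen median was −0.59, with 0 called lower and 2, Col4a3 and Col4a4, called higher (0.0372% and 2.17% of all genes). At an unadjusted p under 0.05, 7 collagens were lower in that library (3.52% of all genes), namely Col4a1, Col5a1, Col5a2, Col6a1, Col6a2, Col15a1 and Col16a1. Leaving THBru 2 out instead, edgeR called 6 collagens lower (4.55% of all genes), namely Col4a1, Col4a2, Col5a1, Col5a3, Col6a1 and Col6a2, and 3 higher (5.06%). With the stromal markers described below as the scale, it called 6 higher (13.7%) and 0 lower (0.112%).

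**Figure D2:**
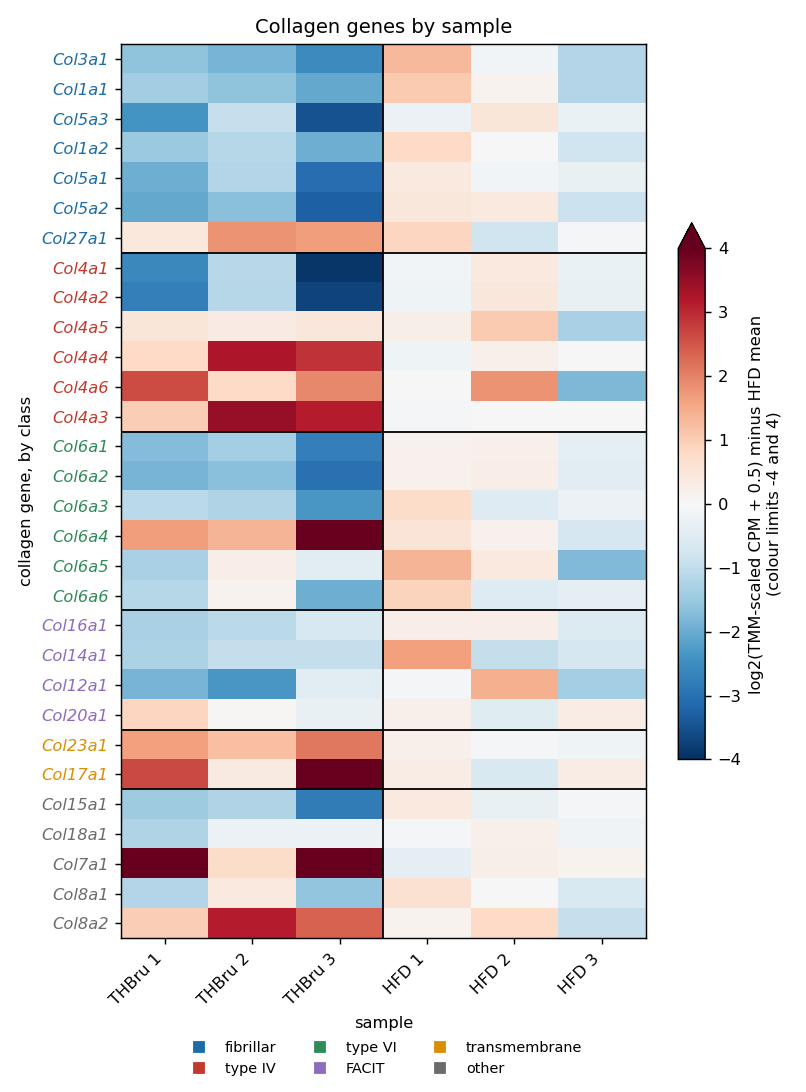
Level of each of the 30 tested collagen genes in each sample, as log2(TMM-scaled CPM + 0.5) minus the mean of the 3 HFD samples, with rows grouped by class and genes ordered by mean FPKM. The fibrillar genes other than Col27a1, together with Col4a1, Col4a2 and Col6a1 to Col6a3, are blue in all 3 THBru samples, and Col7a1, Col17a1 and Col6a4 go past the colour limit in THBru 3.

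Among the fibrillar collagens, for 6 of the 7 tested genes the highest THBru value was under the lowest HFD value, with log2 fold changes from −2.31 to −1.64 and a class median of −1.92. None of them passed the edgeR test over all genes. Col3a1, the chain of type III collagen of soft tissue, had 354, 301 and 185 CPM in THBru 1 to 3, against 2659, 1005 and 488 CPM in HFD 1 to 3 (log2 fold change −2.31, SE 0.71; edgeR adjusted p = 0.182). The HFD libraries themselves spread widely for this gene, and HFD 3 was nearer to THBru 1 than to HFD 1. Col1a1 and Col1a2 encode the chains of type I collagen, the most common fibre collagen. Col1a1 had 142, 122 and 90.5 CPM in THBru, against 768, 412 and 167 CPM in HFD (−1.92, SE 0.59; edgeR adjusted p = 0.181). Col1a2 had 213, 270 and 153 CPM in THBru, against 1047, 595 and 342 CPM in HFD (−1.64, SE 0.49; edgeR adjusted p = 0.179). For both, HFD 1 was the highest library and HFD 3 the lowest of its group.

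Type V collagen, which is built into type I fibres and limits their width, had less spread among the HFD libraries. Col5a1 had 74.7, 129 and 34.7 CPM in THBru, against 381, 271 and 238 CPM in HFD (log2 fold change −1.90, SE 0.52; edgeR adjusted p = 0.173). Col5a2 had 67.9, 87.8 and 28.5 CPM in THBru, against 385, 367 and 154 CPM in HFD (−2.30, SE 0.57; edgeR adjusted p = 0.161). Col5a3, a further type V chain, had 74.8, 208 and 35.0 CPM in THBru, against 338, 553 and 331 CPM in HFD (−1.94, SE 0.70; edgeR adjusted p = 0.197). In all 3 genes THBru 3 was the lowest library and THBru 2 the highest of its group. Col27a1, a fibrillar collagen of cartilage and other tissues, ran the other way at 7.33, 19.9 and 17.9 CPM in THBru, against 9.99, 2.86 and 5.13 CPM in HFD, with overlap (1.33, SE 0.60; edgeR adjusted p = 0.245). The cartilage fibrillar genes Col2a1, Col11a1 and Col11a2 and the minor chain Col24a1 were under the filter. Of these, Col11a1 had 17, 12 and 376 counts in THBru, against 14, 4 and 0 counts in HFD. In THBru 2 alone against HFD the fibrillar median was −1.27.

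The stromal cells that make fibrillar collagens were followed by 15 markers of fibroblasts and adipose progenitors, none of them a collagen. Their summed level was 3505, 7350 and 1695 CPM in THBru 1 to 3, against 8440, 9156 and 10161 CPM in HFD, and 12 of the 15 had negative fold changes, 0 of them called. The 3 with positive log2 fold changes were Dpp4 (2.25), Thy1 (0.48) and Pdgfra (0.25), and they count in the ratio given below. Dpp4 had 327, 53.7 and 131 CPM in THBru, against 41.3, 43.3 and 22.7 CPM in HFD. Gsn, an actin-severing protein gene, made up 48.7 to 70.8% of that sum in THBru and 59.4 to 79.5% in HFD. Without Gsn the sum was 1375, 2147 and 869 CPM in THBru, against 3431, 2667 and 2085 CPM in HFD, so THBru 2 then lay within the HFD range. The mean log2 level of the 7 tested fibrillar genes minus that of the 15 markers was 0.35, 0.58 and 0.67 in THBru, against 1.31, 1.25 and 0.79 in HFD. The groups did not overlap (difference −0.58; exact permutation p = 0.1, the smallest possible). With Pdgfra, Pdgfrb, Dcn and Lum as the only markers the difference was −0.48 (exact permutation p = 0.2). In bulk tissue, fewer cells of a type and less RNA per cell cannot be told apart. The part of the stromal markers in the collagen values was not tested beyond this ratio.

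**Figure D3:**
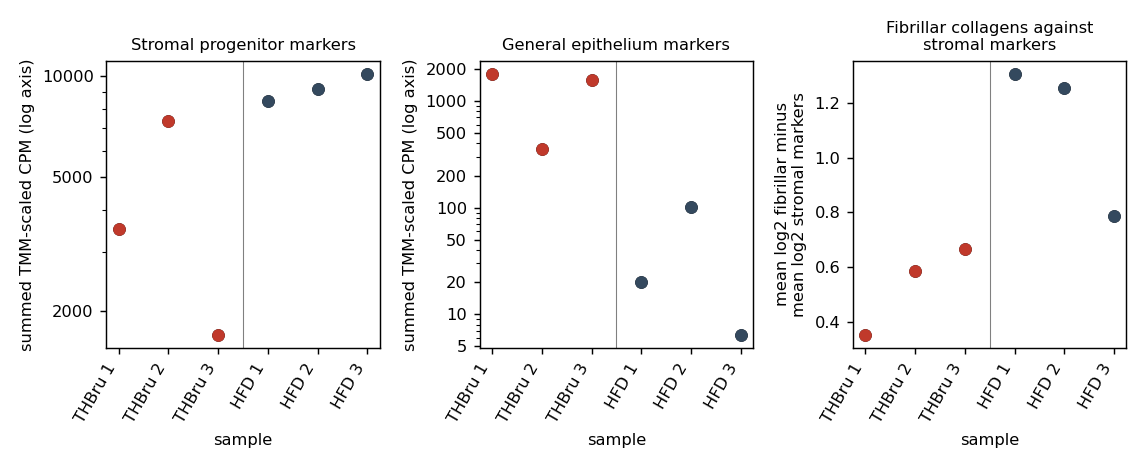
Summed level of the stromal progenitor markers (left) and general epithelium markers (middle) in TMM-scaled CPM on log axes, and the mean log2 level of tested fibrillar collagens minus that of the stromal markers (right), 1 point per sample. The ratio lies between 0.35 and 0.67 in the 3 THBru samples and between 0.79 and 1.31 in the 3 HFD samples.

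Type IV collagen split by chain pair. The 6 chains are encoded by 3 pairs of neighbouring genes that start close together and run in opposite directions. In the deposited coordinates, read as GRCm38, Col4a1 (chromosome 8, 11198423 to 11312826, minus strand) and Col4a2 (11312805 to 11449287, plus strand) overlap at their starts by 22 bases. Col4a3 (chromosome 1, 82586921 to 82722059, plus strand) and Col4a4 (82448423 to 82586849, minus strand) start 72 bases apart, and Col4a5 and Col4a6 on chromosome X start 1309 bases apart. The 250 bases before the RefSeq start (GRCm38.p6) are shown for Col4a1 and Col4a2, a pair that was low in THBru, and for Col4a4, whose window also holds the start of Col4a3 and whose pair was high. Capitals mark the CCAAT box, which reads ATTGG on the other strand, and the GC box, whose letters GGGCGG read as CCGCCC there. A further motif searched, the TATA box, has the letters TATAAA or, on the other strand, TTTATA, and no match of 1 motif overlaps one of another in these windows.
Col4a1, chr8:11312827-11313076, minus strand: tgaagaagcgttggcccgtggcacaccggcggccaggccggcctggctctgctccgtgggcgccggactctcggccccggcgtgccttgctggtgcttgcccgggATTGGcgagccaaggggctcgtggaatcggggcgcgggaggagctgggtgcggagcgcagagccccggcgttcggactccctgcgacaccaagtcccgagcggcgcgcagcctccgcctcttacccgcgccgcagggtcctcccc
Col4a2, chr8:11312555-11312804, plus strand: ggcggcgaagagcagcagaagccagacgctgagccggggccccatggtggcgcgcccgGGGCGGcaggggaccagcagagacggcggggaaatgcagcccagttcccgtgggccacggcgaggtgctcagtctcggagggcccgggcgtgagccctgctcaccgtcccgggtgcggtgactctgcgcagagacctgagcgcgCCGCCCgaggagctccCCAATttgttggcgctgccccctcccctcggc
Col4a4, chr1:82586850-82587099, minus strand: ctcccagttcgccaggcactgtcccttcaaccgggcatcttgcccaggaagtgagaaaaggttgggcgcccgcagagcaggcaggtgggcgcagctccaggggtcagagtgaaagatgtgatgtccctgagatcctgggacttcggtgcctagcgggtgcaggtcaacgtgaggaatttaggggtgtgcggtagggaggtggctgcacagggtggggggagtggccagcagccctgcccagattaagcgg
The CCAAT box was found at 1 place in the Col4a1 window and at 1 place in the Col4a2 window, which also held the GC box at 2 places. The Col4a4 window held neither, and none of these 3 windows held the TATA box. Of all 32851 such windows, 33.8% held the CCAAT box, 32.7% the GC box and 12.4% the TATA box. The table lists 34 of the 43 collagen genes with 36 windows, of which 12 held the CCAAT box, 22 the GC box and 5 the TATA box. A match describes letters only and no binding was measured here.

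Col4a1 and Col4a2, the chains of the basement membrane network found in nearly all tissues, were the most abundant collagens per length in HFD. Col4a1 averaged 86.6 ± 95.5 FPKM in THBru and 379 ± 77.9 FPKM in HFD, and Col4a2 averaged 60.7 ± 66.0 FPKM in THBru and 273 ± 69.3 FPKM in HFD (SD, n = 3 each). Single libraries had 453, 1269 and 181 CPM of Col4a1 in THBru, against 2509, 3534 and 2260 CPM in HFD (log2 fold change −2.12, SE 0.77; edgeR adjusted p = 0.198). They had 259, 783 and 132 CPM of Col4a2 in THBru, against 1542, 2364 and 1403 CPM in HFD (−2.18, SE 0.74; edgeR adjusted p = 0.189). For both genes all THBru values were under all HFD values, and THBru 2 was nearest to HFD. The log2 ratio of Col4a1 to Col4a2 FPKM stayed between 0.28 and 0.63 in THBru and between 0.41 and 0.53 in HFD. Endothelial markers, whose cells also lay down this network, summed to 562, 2836 and 259 CPM in THBru, against 1579, 2080 and 2786 CPM in HFD, so the sum in THBru 2 was slightly above the highest HFD sum, while the mean log2 level of the list there, 7.66, lay just under that of HFD 3, 7.67. The adipocyte list summed to 11047, 29481 and 3435 CPM in THBru, against 28302, 41457 and 44496 CPM in HFD, within the HFD range in THBru 2. The part of endothelial cells and adipocytes in the values of both chains was not tested.

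Col4a3 and Col4a4 encode chains of the mature network of kidney glomeruli and a few other epithelia. Col4a3 had 4.83, 29.6 and 23.4 CPM in THBru, against 2.09, 2.23 and 2.22 CPM in HFD (log2 fold change 3.14, SE 0.69; edgeR adjusted p = 0.150). Col4a4 had 9.0, 50.6 and 40.2 CPM in THBru, against 4.32, 5.73 and 4.86 CPM in HFD (2.74, SE 0.65; edgeR adjusted p = 0.159). The HFD libraries lay close together, and THBru 2 and THBru 3 were far above them, but in CPM of the total count THBru 1 lay inside the HFD range for Col4a4. With THBru 1 left out, both genes passed (edgeR adjusted p = 0.0348 for each), where 0.489% of all genes were called higher and 0% lower. Both averaged under 0.5 FPKM in HFD (0.223 for Col4a3 and 0.478 for Col4a4). Higher values in THBru were thus a condition of their being tested. Kidney tubule markers summed to 2.96, 715 and 12.8 CPM in THBru, against 2.77 to 3.20 CPM in HFD. That list holds no markers of glomeruli, so it gives no level for them. The general epithelium list stood at 1793, 354 and 1579 CPM in THBru, against 19.98, 101 and 6.39 CPM in HFD. The part of these cell types in the values was not tested.

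Col4a5 and Col4a6 overlapped between the groups. Col4a5 had 24.1, 21.7 and 23.8 CPM in THBru, against 20.4, 36.2 and 6.74 CPM in HFD (log2 fold change 0.13, SE 0.57; edgeR adjusted p = 0.900). Col4a6, a chain of smooth muscle and epithelial basement membranes, had 33.8, 9.33 and 21.0 CPM in THBru, against 5.14, 18.9 and 1.14 CPM in HFD (1.35, SE 1.02; edgeR adjusted p = 0.439). Without HFD 3, which was the lowest library for both, Col4a5 stood at −0.29. The median over the 6 type IV genes, 0.74, thus lies between Col4a5 and Col4a6 and describes neither Col4a1 and Col4a2 nor Col4a3 and Col4a4. It was 0.11 in THBru 2 alone.

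**Figure D4:**
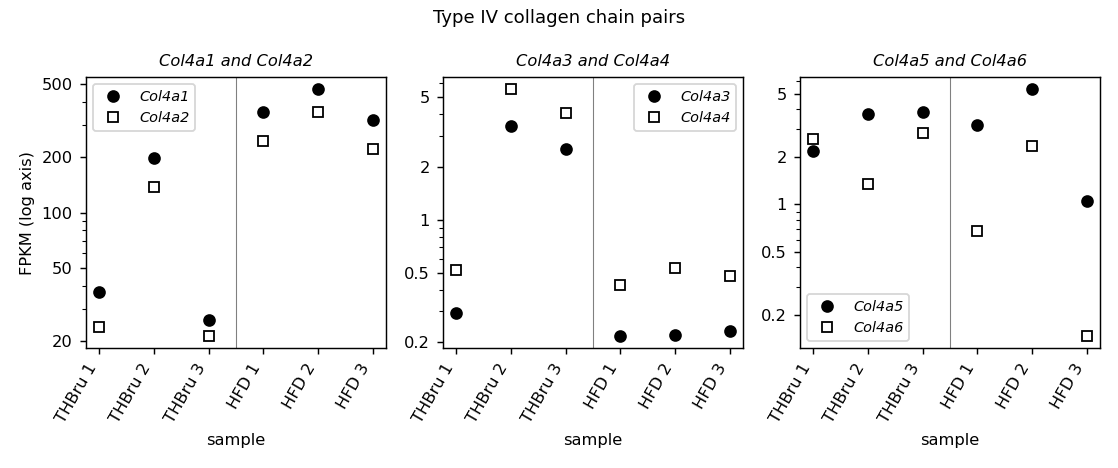
FPKM on log axes of the 3 type IV collagen gene pairs in each sample, filled circles for the first gene of a pair and open squares for the second. Col4a1 and Col4a2 lie lower in all 3 THBru samples than in any HFD sample, Col4a3 lies higher in all 3 THBru samples, and Col4a5 and Col4a6 overlap.

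The 3 core genes of type VI collagen, which assemble with each other into its beaded filaments, were lower in THBru without overlap. Col6a1 had 242, 314 and 120 CPM in THBru, against 909, 933 and 612 CPM in HFD (log2 fold change −1.86, SE 0.44; edgeR adjusted p = 0.159). Col6a2 had 166, 192 and 76.0 CPM in THBru, against 678, 737 and 447 CPM in HFD (−2.10, SE 0.44; edgeR adjusted p = 0.142). It had the smallest adjusted p among the collagens that were lower. Col6a3, whose protein is cut to release the adipose signal peptide endotrophin, had 80.3, 73.1 and 32.8 CPM in THBru, against 283, 118 and 143 CPM in HFD (−1.55, SE 0.50; edgeR adjusted p = 0.186). Per length, Col6a1 averaged 48.7 ± 29.8 FPKM in THBru and 191 ± 39.1 FPKM in HFD, and Col6a3 averaged 4.70 ± 2.13 FPKM in THBru and 15.7 ± 8.04 FPKM in HFD (SD, n = 3 each).

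The newer type VI chain genes, Col6a4, Col6a5 and Col6a6, form a row on chromosome 9 on the minus strand, with 28810 bases between Col6a4 and Col6a5 and 27917 between Col6a5 and Col6a6. Their levels did not move as 1 unit. Col6a4, named here after its values were seen, had 3.36, 2.62 and 241 CPM in THBru, against 1.23, 0.862 and 0.25 CPM in HFD (log2 fold change 6.72, SE 2.21; edgeR adjusted p = 0.188). THBru 1 and THBru 2 also lay above the HFD libraries, but THBru 3 was far above all others, and there Col6a4 held more counts, 18091, than any other collagen gene. That library was also the one with the epididymis list at 46822 CPM, against 222 and 76.2 CPM in THBru 1 and THBru 2 and 54.5 to 62.8 CPM in HFD, and the part of this tissue in the value was not tested. Col6a5 had 15.0, 44.9 and 27.4 CPM in THBru, against 97.3, 49.6 and 10.6 CPM in HFD, and Col6a6 had 7.31, 18.4 and 3.90 CPM in THBru, against 30.9, 11.4 and 12.8 CPM in HFD. Both overlapped between the groups (−0.85, SE 0.82, and −0.89, SE 0.69; edgeR adjusted p = 0.535 and 0.446). Of the 6 type VI genes, 5 had negative fold changes, with a class median of −1.22, or −0.74 in THBru 2 alone.

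Of the 4 tested FACIT collagens, 3 had negative fold changes, 0 passed the edgeR test, and 1, Col16a1, did not overlap between the groups. Col16a1, a fibril- and basement membrane-associated chain, had 33.4, 38.9 and 52.4 CPM in THBru, against 99.3, 99.6 and 56.3 CPM in HFD, without overlap (log2 fold change −1.03, SE 0.31; edgeR adjusted p = 0.178). THBru 3 and HFD 3 were close to each other. Col14a1, which regulates fibril growth, had 24.0, 30.1 and 30.2 CPM in THBru, against 185, 29.8 and 36.2 CPM in HFD, so that HFD 1 alone stood high (−1.57, SE 0.75; edgeR adjusted p = 0.261). Without HFD 1 its log2 fold change was −0.23. Col12a1, a chain of tendon and other dense tissue, had 21.0, 15.2 and 57.5 CPM in THBru, against 74.2, 211 and 29.7 CPM in HFD, and the groups overlapped (−1.75, SE 0.86; edgeR adjusted p = 0.269). Col20a1 overlapped as well (0.28, SE 0.48; edgeR adjusted p = 0.734). Col9a2, Col9a3, Col19a1 and Col22a1 were under the filter, with at most 136 counts in any library. When the stromal markers set the scale, the sign turned for Col16a1 (0.70), Col14a1 (0.0026) and Col12a1 (0.27), but all genes then had a median of 1.71. That scale was the summed count of the 15 markers, of which Gsn alone made up 48.7 to 79.5% in single libraries.

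Both tested transmembrane collagens were higher in THBru without overlap. Col23a1, found at the surface of epithelial and other cells, had 12.2, 9.03 and 17.4 CPM in THBru, against 4.22, 3.52 and 3.17 CPM in HFD (log2 fold change 1.83, SE 0.34; edgeR adjusted p = 0.125, the smallest of any collagen). Col17a1, a component of the hemidesmosomes of basal epithelial cells, had 6.98, 1.04 and 22.6 CPM in THBru, against 0.974, 0.283 and 0.977 CPM in HFD (3.78, SE 1.20; edgeR adjusted p = 0.185). In THBru 2 it lay just above the HFD values. Of the 2 untested members, Col13a1 had 109, 109 and 165 counts in THBru, against 8, 77 and 10 counts in HFD, and Col25a1 had at most 18 counts in any library.

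Col7a1 encodes the anchoring fibril collagen that ties basal epithelium to the underlying matrix. It had 96.5, 3.97 and 47.6 CPM in THBru, against 1.60, 2.64 and 2.44 CPM in HFD (log2 fold change 4.47, SE 1.13; edgeR adjusted p = 0.164). THBru 1 and THBru 3 were high, and THBru 2 was just above the HFD libraries. Without THBru 2, Col7a1, Col17a1 and Col23a1 passed as higher (edgeR adjusted p = 0.0156, 0.0440 and 0.0314), where 5.06% of all genes were called higher. Of these, Col7a1 and Col17a1 averaged under 0.5 FPKM in HFD (0.219 and 0.128). For both, higher values in THBru were a condition of being tested. The general epithelium list, given above, had 9 of 9 tested members with positive fold changes, 1 of them called. The basal epithelium list, 7 of 9 positive, summed to 376, 353 and 387 CPM in THBru, against 336, 414 and 412 CPM in HFD, with Itga6 as its largest member in all 6 libraries. Its defining keratin gene Krt5 had 1135, 23 and 4016 counts in THBru, against 4, 4 and 0 counts in HFD. Krt5 was thus high in the same 2 libraries as Col7a1 and Col17a1, but it is 1 of 9 members, and the sum of the list overlapped between the groups. The members with negative log2 fold changes were Itga6 (−1.11) and Lamb3 (−1.14). The part of basal epithelium in the values of Col7a1 and Col17a1 was not tested.

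The other basement membrane and network collagens differed from gene to gene. Col15a1, a chain of adipocyte and vessel basement membrane zones, had 142, 165 and 54.7 CPM in THBru, against 498, 313 and 360 CPM in HFD, without overlap (log2 fold change −1.69, SE 0.47; edgeR adjusted p = 0.173). Col18a1, the source of the anti-angiogenic fragment endostatin, had 76.2, 150 and 151 CPM in THBru, against 169, 205 and 160 CPM in HFD (−0.50, SE 0.32; edgeR adjusted p = 0.367). Its groups did not overlap after TMM scaling, but they did in CPM of the total count. Col8a1 overlapped at 6.41, 20.1 and 4.74 CPM in THBru, against 23.5, 15.2 and 9.74 CPM in HFD. Its partner Col8a2, a chain of endothelial and corneal matrix, had 2.88, 14.6 and 8.36 CPM in THBru, against 1.41, 2.47 and 0.401 CPM in HFD (2.59, SE 0.89; edgeR adjusted p = 0.191). Col10a1, Col26a1 and Col28a1 were under the filter. Of these, Col26a1 had 446, 107 and 21 counts in THBru, against 0, 15 and 0 counts in HFD, and Col28a1 had 8, 25 and 51 counts in THBru, against 142, 163 and 47 counts in HFD. The filter fell between Col20a1, the lowest gene tested at a mean of 0.788 FPKM, and Col11a2, the highest gene left out at 0.292 FPKM.

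**Figure D5:**
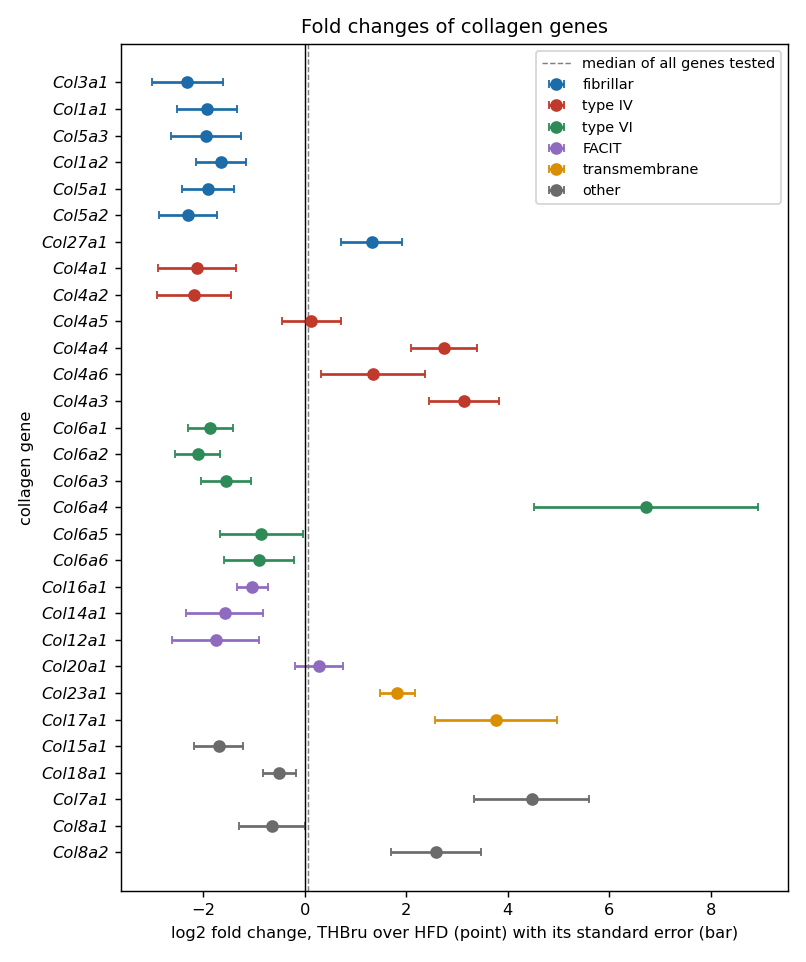
Log2 fold change of THBru over HFD with its standard error for the 30 tested collagen genes, coloured by class; the dashed line is the median of all genes tested, 0.08. The 6 abundant fibrillar genes lie between −2.31 and −1.64, and the genes above 2 are Col4a3, Col4a4, Col6a4, Col17a1, Col7a1 and Col8a2.

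Chains of the same collagen type, and the related pairs Col3a1 with Col1a1 and Col15a1 with Col18a1, were compared as log2 ratios of FPKM, which do not depend on the scaling between libraries. Of 9 pairs, 2 did not overlap between the groups. Col6a1 to Col6a2 stood at 1.47, 1.64 and 1.59 in THBru, against 1.35, 1.27 and 1.38 in HFD (difference 0.23), and Col4a3 to Col4a4 stood at −0.81, −0.68 and −0.69 in THBru, against −0.96, −1.27 and −1.05 in HFD (difference 0.37). With a pseudocount of 0.5 FPKM the Col4a3 to Col4a4 difference turned to −0.087, without a call. Without a pseudocount, the exact permutation p was 0.1 for each, the smallest possible, and 0.45 when adjusted over the 9 pairs. For the type I pair, Col1a1 to Col1a2 stood at 0.34, −0.22 and 0.17 in THBru, against 0.48, 0.39 and −0.12 in HFD, with overlap. The largest difference was that of Col4a5 to Col4a6, at −0.24, 1.47 and 0.43 in THBru, against 2.24, 1.19 and 2.82 in HFD, also with overlap (difference −1.53; exact permutation p = 0.2). Col15a1 to Col18a1 differed by −1.26 (exact permutation p = 0.2), and the other 4 pairs differed by −0.33 to 0.40 with overlap.

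The enzymes and receptors of collagen showed mostly negative fold changes too. Of 30 tested genes of collagen processing, 24 were negative (median −1.05), 0 passed the edgeR test in either direction and 19 were lower at an unadjusted p under 0.05, where the share of all genes tested was 8.93%. Serpinh1, the collagen-specific chaperone HSP47, had 90.0, 125 and 50.2 CPM in THBru, against 536, 337 and 329 CPM in HFD. Pcolce2, an enhancer of procollagen cleavage, had 5.22, 11.6 and 2.35 CPM in THBru, against 49.5, 49.5 and 38.0 CPM in HFD. Plod3, a lysyl hydroxylase gene, had 63.1, 83.8 and 36.3 CPM in THBru, against 170, 168 and 149 CPM in HFD. The edgeR adjusted p of these 3 was 0.134, 0.147 and 0.159, and in each the groups did not overlap. Of 11 tested collagen receptor genes, 10 were negative (median −1.24), 0 passed and 4 were lower at an unadjusted p under 0.05, against the same 8.93% of all genes. Mrc2, an endocytic collagen receptor gene, had 15.2, 30.4 and 11.9 CPM in THBru, against 205, 422 and 79.3 CPM in HFD. Itga11, a fibroblast collagen integrin, had 4.06, 6.05 and 1.92 CPM in THBru, against 19.5, 13.3 and 15.7 CPM in HFD, and Itgb1, its partner subunit, had 370, 467 and 323 CPM in THBru, against 697, 808 and 666 CPM in HFD. Their edgeR adjusted p was 0.139, 0.159 and 0.181.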

How the data were processed

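RNA sequencing of white adipose tissue was compared between 3 THBru and 3 HFD samples. Raw gene counts (whole numbers without normalization) and FPKM calculated by the authors stand side by side in the deposited table, per the file headers. The submitters' processing notes list HISAT2 2.2.1, cutadapt 1.9, StringTie 2.1.6, edgeR and DESeq2, without roles. The counting program, its strand setting and the genome build were not given in the sources used here. Per the labels' protocols the kit marks the second strand with dUTP, but with counting unstated, reads of overlapping antisense genes, which 18 of the 43 collagens have in GENCODE M21, cannot be told apart. Of the 43, 37 have the coordinates of that annotation (GRCm38). Promoter windows are from RefSeq (GRCm38.p6).

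Rows sharing a symbol were summed (32819 rows to 32759 genes). Genes with a mean of at least 0.5 FPKM were tested with edgeR 4.0.16 (R 4.3.3; quasi-likelihood, robust, TMM, total counts as library sizes), two-sided, with Benjamini-Hochberg adjustment over all 16140 genes and a threshold of 0.05. Single values per sample were compared by exact permutation tests. DESeq2 1.42.0, limma 3.58.1, other scalings and filters and left-out samples were alternatives. The steps were tested on simulated counts. A count of 0 allows 3 counts, or 0.0390 to 0.0446 CPM. Members, lists and named genes (the highest by FPKM in each class, the smallest p in each direction, and partner chains) were chosen with earlier results of these data known. A result for 1 marker gene is not reported here.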

Additional observations from a re-analysis of the deposited data

How the results depend on the processing

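Counts of calls depended on the method and on single libraries. Of 16140 genes, edgeR called 19, DESeq2 2773, limma on log2(FPKM + 0.5) and log2(FPKM + 0.1) 73 and 118, edgeR on total counts 53, edgeR scaled to stromal markers 2235 (2217 higher), and THBru 2 alone against HFD 356. With 1 library left out, 0 to 1552 genes were called: 0 without any 1 HFD library, 79 without THBru 1, 1552 without THBru 2 and 23 without THBru 3. For the collagens, edgeR called 0, DESeq2 19, scaling to stromal markers 6 (all higher), THBru 2 alone 2, and fits with 1 library left out 0 to 9: 2 without THBru 1, and 6 lower and 3 higher without THBru 2. The 6 lower were Col4a1, Col4a2, Col5a1, Col5a3, Col6a1 and Col6a2. Same-numbered samples did not deviate together (correlations 0.0482, −0.00921 and −0.062), so the shared numbers give no pairing, and 2 of the 3 THBru samples did not correlate best with their own number. With the replicate number as a block, 0 genes and 0 collagens were called, and the type IV median relative to all genes was 1.25. Exact sign flips over same-numbered pairs, with 0.25 as their smallest p, gave that p for the collagen share (−2.04).

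Medians are given relative to the median of all genes, which scaling to stromal markers moved to 1.71 from 0.08. Gsn alone made up 48.7 to 79.5% of the marker counts that set this scale. All collagens stood at −1.04, and at −0.45 without a filter (−1.56 to −0.50 with 1 library left out). Fibrillar genes stood at −2.00, and at −1.27 in THBru 2 alone (−2.44 to −1.50). Type IV stood at 0.66 (0.19 to 1.69), type VI at −1.30 (−1.78 to −0.77) and FACITs at −1.38, or −0.30 without a filter and −0.69 with filterByExpr (−1.68 to −0.66). Transmembrane genes stood at 2.72, or 1.74 without a filter and 0.92 in THBru 2 alone (1.95 to 3.09). In limma they stood at 1.32 on log2(FPKM + 0.5) and at 1.96 on log2(FPKM + 0.1). The other genes stood at −0.58, and at 0.33 in THBru 2 alone (−0.73 to −0.27). With 1 library left out, the difference in collagen share was −2.52 to −1.71 (log2) and in the fibrillar to stromal ratio −0.75 to −0.49. The fibrillar share within collagen counts differed by −1.69 percentage points (−5.60 to 4.50, positive without THBru 2 or HFD 1). With 1 library left out, the difference between the groups (THBru minus HFD) in the log2 ratio of Col1a1 to Col1a2 ran from −0.34 to 0.0032 and that of Col4a1 to Col4a2 from −0.080 to 0.095, and the difference for Col4a3 to Col4a4 turned to −0.087 with a pseudocount of 0.5. Scaling to stromal markers turned Col18a1 (1.18), Col16a1 (0.70), Col12a1 (0.27) and Col14a1 (0.0026), and leaving out HFD 3 turned Col4a5 (−0.29 to 0.78 with 1 library left out). The cause of these changes was not tested. A scaling added after the data were seen, without genes raised over 8-fold, called 20 genes and 0 collagens.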
